A study of Mus musculus with 8 samples.

Results

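Sphingoid bases and ceramides were looked up by elemental formula in the faecal metabolite profiles of untreated and streptomycin-treated mice. A mass was taken when it lay within 3 ppm of a neutral formula of a sphinganine, sphingosine or phytosphingosine of 14 to 22 carbons, or of a ceramide of 32 to 42 carbons. Of 60 formulas, 11 were matched, each by 1 mass, among the 2429 masses of the deposited table. All 11 were sphingoid base formulas (of 27), and none of the 33 ceramide formulas was matched. The faeces came from female C57BL/6 mice, an inbred laboratory strain, age-matched per the labels. The untreated group had 4 samples, and the streptomycin group had 4 taken 24 h after an oral gavage with 20 mg of the aminoglycoside antibiotic streptomycin. Per the labels, acetonitrile extracts were sprayed without chromatography into an FT-ICR (ion cyclotron resonance) instrument, which weighs ions precisely but does not separate isomers. Per the labels, faeces were collected before the mice were treated and again afterwards, and the antibiotic and the later collection cannot be told apart. The labels name no mouse for a sample, so p-values reflect only how these 8 samples vary, part of which may be technical.

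Sphingoid bases are long-chain amino alcohols and the backbone of all sphingolipids. A fatty acid joined to the amino group of sphinganine gives a dihydroceramide, a double bond added to that gives a ceramide, and ceramidases release sphingosine again. Mammals mostly use an 18-carbon base, plants and yeasts of the diet bring phytosphingosine, which has an additional hydroxyl group, and Bacteroides of the gut make sphinganines and dihydroceramides of their own, often with odd or branched chains. A formula does not identify a compound. The sphingosine formulas are also those of saturated N-acylethanolamines, lipid amides such as palmitoylethanolamide (C18H37NO2) and stearoylethanolamide (C20H41NO2), and of ketosphinganines, the first product of sphingoid base synthesis. The sphinganine formulas are also those of N-alkyl diethanolamines, a class of surfactants and plastic additives. Families are named below for the sphingoid base, and the name stands for the formula with all its isomers.

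The members were matched closely. The mass error ran from -0.10 to 0.50 ppm with a median size of 0.26 ppm, against a stated accuracy of 2 ppm, and the error nearest the 3 ppm limit was the 0.50 ppm of C21H45NO2. No mass of the table lay just outside the limit: the nearest was 285.2590 Da, 27.27 ppm from C17H35NO2. Matched formulas ran from 16 to 21 carbons.

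**Figure D1:**
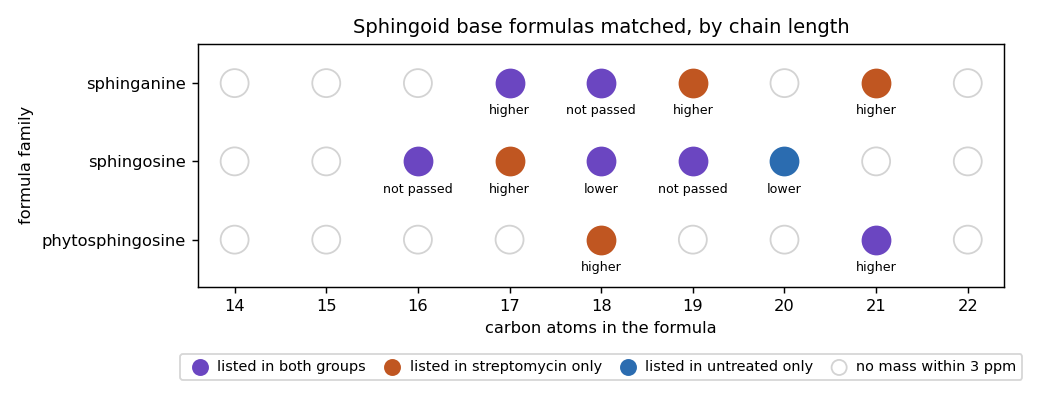
Sphingoid base formulas by number of carbon atoms (horizontal) and family (vertical). Filled circles are the 11 formulas with a mass within 3 ppm, coloured by the group that listed the mass, with the call of the limma test below; open circles are the 16 formulas with none.

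Samples listed 1210 to 1270 masses in the untreated group and 1633 to 1768 in the streptomycin group, with summed relative intensities of 19761 to 20140 and 21600 to 23221. How many ions stand behind an intensity is not known, and no counting interval is given. The 2 masses of the calibration mix spiked into the extracts stood at 1.31 and 1.37 times their untreated mean in the streptomycin group, without overlap between the groups. The median log2 change of the 633 masses listed in at least 3 samples of both groups was -0.47 as deposited, -0.63 after division by total intensity, -0.08 after division by the median ratio and -0.86 on the calibrant scale. No mass lay within 3 ppm of streptomycin itself.

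Of the 11 member masses, 6 were called higher and 2 lower after streptomycin, and 3 did not pass (limma, Benjamini-Hochberg adjusted p under 0.05). Over all 2429 masses the same test called 89.4%, 52.7% higher and 36.7% lower, so most masses of the table were called. On the calibrant scale the members split into 4 higher and 4 lower, and on the median-ratio scale into 7 higher and 2 lower. Of all 2429 masses, 2181 were called on the calibrant scale and 2163 on the median-ratio scale. The 4 higher on the calibrant scale, C17H35NO2, C18H39NO3, C19H41NO2 and C21H45NO2, were listed in streptomycin samples only. No member listed in both groups was called higher on that scale. Of the 11 members, 6 were listed in both groups, 4 in streptomycin samples only and 1 in untreated samples only. Among those 4, C19H41NO2 had a row of untreated samples only that lay lower by the exchange of sodium for hydrogen, given below. Of all 2429 masses, 633 were listed in both groups, 1150 in streptomycin samples only and 646 in untreated samples only. A mass listed in one group only has a fitted change because 0 was replaced by the lowest sample value of the table, and no fold is given for it. Among the 6 members of both groups, C17H37NO2 and C21H45NO3 rose, C18H37NO2 fell and 3 did not pass. In that class of 633 masses 59.4% were called, 20.7% higher and 38.7% lower.

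**Figure D2:**
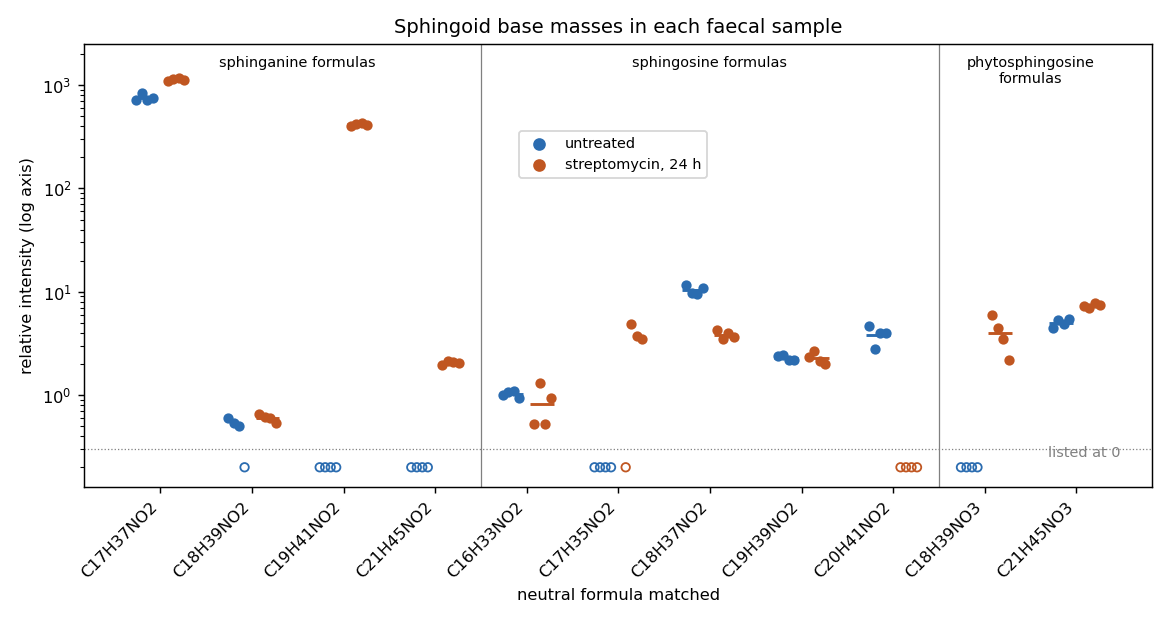
Relative intensity of each member in each of the 4 untreated and 4 streptomycin samples, on a log axis; lines are group means where all 4 samples list the mass, and open circles below the dotted line are samples that listed the mass at 0. C17H37NO2 and C19H41NO2 stand at 403 and above where listed, and every other member stays at 11.7 or below.

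Sphinganine formulas held the most intense members. C17H37NO2, at 287.2824 Da, is the formula of a 17-carbon sphinganine and also of an N-alkyl diethanolamine. Which of them was measured was not tested. It was at 715, 832, 710 and 755 in the untreated samples and at 1092, 1158, 1162 and 1109 in the streptomycin samples. All 4 streptomycin samples were above all 4 untreated samples, and groups that do not overlap were found for 59.7% of the masses of both groups. The means were 753 ± 56.6 and 1130 ± 35.5 (SD, n = 4 each), a log2 change of 0.59 ± 0.09 (SE; limma adjusted p = 0.000321). This mass was the most intense row of the table in streptomycin samples and ranked 5 in untreated samples. It made up 3.78% of the summed intensity of untreated samples and 5.08% of that of streptomycin samples. On the calibrant scale its log2 change was 0.17 ± 0.11 (SE) and did not pass (limma adjusted p = 0.188). Intensities of different compounds depend on how well each one ionises, so they do not rank amounts.

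C19H41NO2, at 315.3137 Da, is the formula with 2 more carbons, of a sphinganine and of an N-alkyl diethanolamine alike. It was at 403, 419, 433 and 413 in the streptomycin samples and listed at 0 in all 4 untreated samples. A mass lower by 21.9819 Da, the exchange of sodium for hydrogen, was listed in the untreated samples only. That mass, 293.3317 Da, was at 251, 292, 255 and 278 there, and its spacing from 315.3137 Da deviated by -0.18 ppm. Each sample thus listed 1 of these masses and no sample listed both.

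The C17H37NO2 mass had a row at the same spacing as well. In untreated samples 265.3004 Da stood at 714, 831, 709 and 754, within 0.118% of C17H37NO2 in each sample, and it was listed at 0 in all 4 streptomycin samples. The 2 acquisitions of C17H37NO2 differed by a median of 2.20%. The deposited table does not say which ion each row was computed from, so whether the rows at this spacing are the same ions was not tested. In the whole data set, 33 of 1150 masses listed in streptomycin samples only had a row of untreated samples only at this spacing within 1 ppm. Among the 4 members of streptomycin samples only, this held for C19H41NO2.

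**Figure D3:**
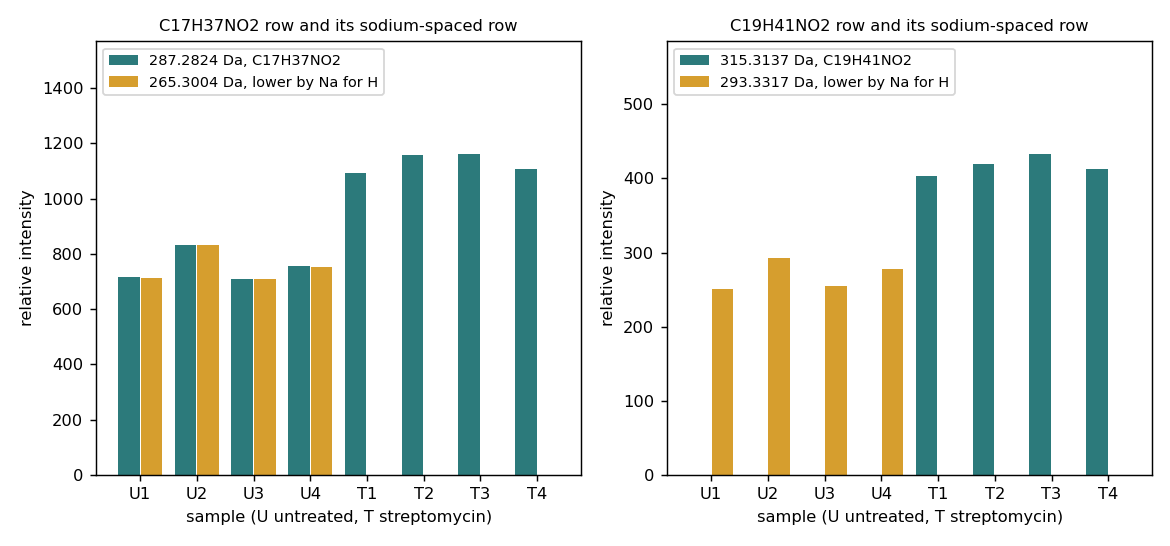
Relative intensity in each sample (U untreated, T streptomycin) of C17H37NO2 and of C19H41NO2, each beside the row that lies lower by the exchange of sodium for hydrogen. The lower rows, 265.3004 and 293.3317 Da, are listed in the 4 untreated samples alone, and the C19H41NO2 row in the 4 streptomycin samples alone.

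When rows at this spacing were joined, which was decided with the values in view, C19H41NO2 was listed in all 8 samples. Its mean was then 269 ± 19.3 without and 417 ± 12.6 with streptomycin (SD, n = 4 each), a log2 change of 0.63 ± 0.09 (SE; limma adjusted p = 0.000189), in place of a mass listed in one group only. On the calibrant scale the joined value changed by 0.22 ± 0.11 (log2, SE; limma adjusted p = 0.106). The joined C19H41NO2 stood at 35.2, 35.1, 35.9 and 36.8% of C17H37NO2 in the untreated samples and at 36.9, 36.2, 37.3 and 37.2% in the streptomycin samples. These percentages overlapped between the groups, and the log2 ratio of C17H37NO2 over C19H41NO2 differed by -0.05 (95% interval -0.09 to -0.00011; exact two-sided permutation p = 0.0571).

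The other sphinganine formulas were of low intensity. C18H39NO2, at 301.2982 Da, is the formula of sphinganine itself, the main base of mammalian sphingolipid synthesis. It was at 0.600, 0.541, 0.506 and 0 in the untreated samples and at 0.655, 0.620, 0.595 and 0.531 in the streptomycin samples. The groups overlapped, and the change did not pass (limma adjusted p = 0.251). Its fitted change rests on the value put in for the untreated sample at 0: without that sample the log2 change was 0.13. C21H45NO2, at 343.3452 Da, was at 1.96, 2.14, 2.07 and 2.05 in the streptomycin samples and listed at 0 in all untreated samples. Neither mass had a row at the sodium spacing.

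Sphingosine formulas of different chain length did not all change alike. C18H37NO2, at 299.2825 Da, is the formula of sphingosine, the base that ceramidases release from ceramides, and of palmitoylethanolamide. It was at 11.7, 9.68, 9.59 and 10.8 in the untreated samples and at 4.22, 3.45, 4.00 and 3.67 in the streptomycin samples. Every streptomycin sample was below every untreated sample. The means were 10.4 ± 0.997 and 3.84 ± 0.340 (SD, n = 4 each), a 2.72-fold lower level and a log2 change of -1.44 ± 0.11 (SE; limma adjusted p = 4.6e-06). It was lower on each scale tried, from -1.05 on the median-ratio scale to -1.86 on the calibrant scale. C20H41NO2, at 327.3138 Da, the formula of a 20-carbon sphingosine and of stearoylethanolamide, was at 4.62, 2.78, 3.99 and 3.97 in the untreated samples, whereas no streptomycin sample listed it.

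The other 3 sphingosine formulas did not share this pattern. C19H39NO2, at 313.2982 Da, was at 2.41, 2.45, 2.17 and 2.20 in the untreated samples and at 2.35, 2.69, 2.15 and 1.99 in the streptomycin samples. The groups overlapped and the log2 change was -0.01 ± 0.12 (SE; limma adjusted p = 0.916), but it was 0.38 on the median-ratio scale (limma adjusted p = 0.0258) and -0.43 after division by the calibrants (limma adjusted p = 0.0141), so its direction follows the scale. C16H33NO2, at 271.2512 Da, was at 1.00, 1.07, 1.09 and 0.937 in the untreated samples and at 0.521, 1.30, 0.527 and 0.938 in the streptomycin samples. The low values of streptomycin samples 1 and 3 are samples in which 1 of the 2 acquisitions did not list the mass. Its log2 change of -0.43 ± 0.31 (SE; limma adjusted p = 0.214) became 0.07 with the mean over the listed acquisitions, while it was -0.85 after division by the calibrants (limma adjusted p = 0.015) and -0.69 without streptomycin sample 2 (limma adjusted p = 0.0236). C17H35NO2, at 285.2669 Da, was at 4.92, 3.72 and 3.50 in streptomycin samples 2, 3 and 4 and listed at 0 in streptomycin sample 1 and in all untreated samples. Without any 1 of samples 2 to 4 it was listed too rarely to be tested.

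The differences between chain lengths were tested within this family. The ratio of 2 members within a sample does not depend on the scale, and 3 pairs of sphingosine formulas were listed in all 8 samples. The log2 ratio of C18H37NO2 over C19H39NO2 averaged 2.18 ± 0.147 without and 0.75 ± 0.257 with streptomycin (SD, n = 4 each). The difference was -1.43 ± 0.15 (SE; 95% interval -1.79 to -1.07), with p = 0.0286 in an exact two-sided permutation test, which cannot go lower with 4 against 4 samples, and 0.0429 adjusted over the 3 pairs. Thus the 18-carbon formula fell relative to the 19-carbon formula in 4 of 4 streptomycin samples. The log2 ratio of C16H33NO2 over C18H37NO2 differed by 1.02 ± 0.40 (SE; 95% interval 0.03 to 2.00; exact permutation p = 0.0286, adjusted 0.0429). With the mean over listed acquisitions this difference was 1.52, so its size depends on the handling of unlisted acquisitions. C16H33NO2 over C19H39NO2 differed by -0.41 (95% interval -1.16 to 0.33; exact permutation p = 0.371, adjusted 0.371), an interval that holds more than a 2-fold lower ratio as well as no change. Its direction turned with the handling of unlisted acquisitions: it was 0.0852 with the mean over listed acquisitions. With any 1 sample left out it stayed below 0, from -0.59 to -0.22. The sphinganine and phytosphingosine families had no pair listed in all 8 samples.

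**Figure D4:**
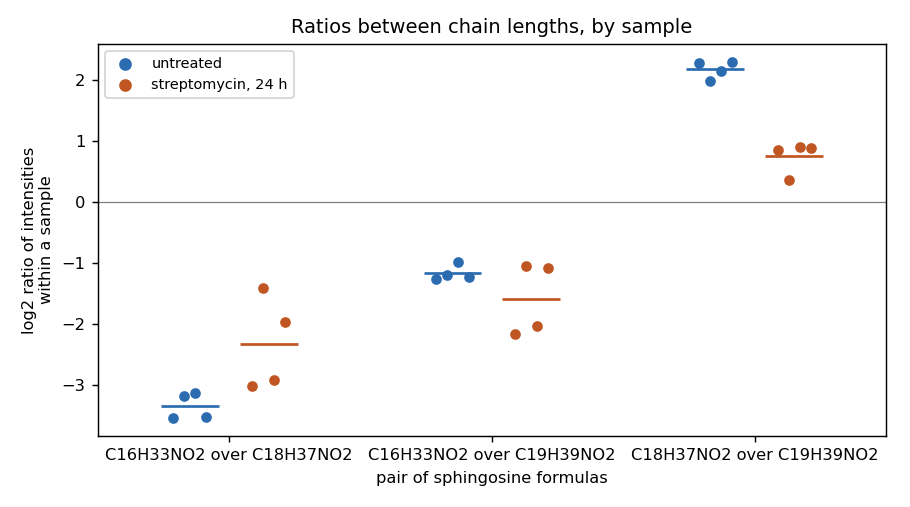
Log2 ratio of the intensities of 2 sphingosine formulas within each sample, for the 3 pairs listed in all 8 samples; points are samples and lines group means. The ratios that hold C18H37NO2 do not overlap between the groups, and C16H33NO2 over C19H39NO2 does.

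Phytosphingosine formulas were matched at 18 and 21 carbons. C18H39NO3, at 317.2931 Da, is the formula of phytosphingosine, a base of plant and yeast sphingolipids among others, and its source was not tested. C18H39NO3 was at 5.90, 4.44, 3.50 and 2.18 in the streptomycin samples and listed at 0 in all 4 untreated samples. Its spread, 4.00 ± 1.57 (SD, n = 4), was the widest relative to the mean among the members listed in all 4 samples of only one group. The loss of water turns this formula into that of sphingosine, C18H37NO2, which was lower in the same samples. C21H45NO3, at 359.3400 Da, was at 4.47, 5.27, 4.88 and 5.40 in the untreated samples and at 7.33, 6.94, 7.82 and 7.52 in the streptomycin samples. The groups did not overlap, the means were 5.01 ± 0.421 and 7.41 ± 0.370 (SD, n = 4 each), and the log2 change was 0.57 ± 0.09 (SE; limma adjusted p = 0.000698). On the calibrant scale it was 0.15 ± 0.13 and did not pass (limma adjusted p = 0.288).

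The scale decided the calls of some members. Members that rose as deposited, C17H37NO2 and C21H45NO3, did not pass on the calibrant scale, on which C16H33NO2 and C19H39NO2 were lower. C17H37NO2 and C21H45NO3 were 1.50 and 1.48 times higher by their means, beside 1.31 and 1.37 times for the calibrants. Of the 3 members of both groups that passed as deposited, C18H37NO2 was the one that passed on all 4 scales.

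**Figure D5:**
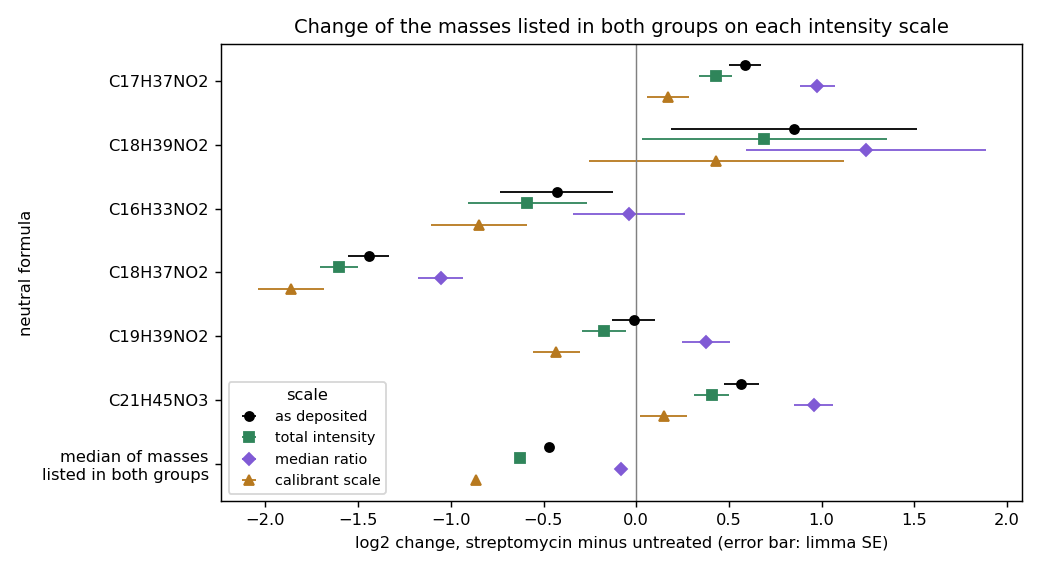
Log2 change (streptomycin minus untreated, error bars limma SE) of the 6 members listed in both groups and the median of all masses listed in both groups (no error bar), with intensities as deposited and on 3 other scales. C18H37NO2 lies between -1.86 and -1.05, while C19H39NO2 lies on both sides of 0.

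Ceramides are sphingoid bases that carry an acyl chain, and none of their 33 formulas had a mass within 3 ppm in either group. The range they span, 509.48 to 667.65 Da, held 512 masses, 237 of them listed in untreated and 418 in streptomycin samples. Listed sample values in this range had a median of 2.23 and went down to 0.133. The nearest mass to a ceramide formula, 525.4781 Da, lay 64.69 ppm from C33H67NO3. Of sodium, potassium, hydrogen chloride and formic acid forms within 1 ppm, no ceramide formula had any. The loss of water matched 1 formula: 519.5015 Da, C34H67NO3 (the formula of the ceramide of sphingosine and palmitic acid) less water, was at 0.286, 0.610, 0.686 and 0.842 in the untreated samples, and no streptomycin sample listed it. A ceramide below the listing limit is not seen by this method, so the lack of a match gives no level.

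Other sphingolipids and the unsaturated relatives of the N-acylethanolamines were looked up by 126 formulas, of which 3 were matched. Sphingoid base phosphates, capnines (sulfonated bases of gut bacteria), N-acyl capnines, hexosylceramides, ceramide phosphoethanolamines and sphingomyelins had no match. All 3 matched masses were called lower after streptomycin and none higher (limma), beside 36.7% of all masses called lower. The count was 2 on the median-ratio scale, and also with the lowest listed value of the same mass put in for 0 and among masses of both groups. C20H37NO2, at 323.2825 Da, the formula of linoleoylethanolamide, was at 5.37, 4.68, 6.28 and 5.59 in the untreated samples and at 2.75, 2.95, 2.38 and 2.73 in the streptomycin samples. It fell with no overlap between the groups, by a log2 change of -1.02 ± 0.12 (SE; limma adjusted p = 8.31e-05). C22H41NO2, at 351.3138 Da, went from 1.64 ± 0.233 to 0.949 ± 0.229 (SD, n = 4 each; log2 change -0.81 ± 0.20 SE, limma adjusted p = 0.00593). After division by the median ratio it did not pass (limma adjusted p = 0.12). C20H39NO2, at 325.2981 Da, the formula of oleoylethanolamide, was at 3.73, 2.51, 3.80 and 3.57 in the untreated samples, and no streptomycin sample listed it. The members that were lower, C18H37NO2 and C20H41NO2, are also the formulas of saturated N-acylethanolamines, of palmitic and stearic acid. Saturated N-acylethanolamines share the other sphingosine formulas as well. Of these, C17H35NO2 was called higher, through the value put in for 0, and C16H33NO2 and C19H39NO2 did not pass. These data do not separate both classes.

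For 5 members a mass at the loss of water, itself no member, was listed in both groups. That of C17H37NO2, 269.2719 Da, averaged 2.43 ± 0.0743 without and 3.09 ± 0.180 with streptomycin (SD, n = 4 each; limma adjusted p = 0.0046). Its log2 change as deposited, 0.35, was smaller than the log2 ratios of the calibrant means, 0.39 and 0.46. The loss-of-water mass of C18H37NO2, 281.2719 Da, was at 25.8 ± 6.84 and 41.2 ± 17.9 (SD, n = 4 each). This mass was more intense than the C18H37NO2 row and did not pass the threshold (limma adjusted p = 0.101), while C18H37NO2 fell. The row of C19H41NO2, 297.3032 Da, was at 1.63 ± 0.115 and 1.52 ± 0.112 (SD, n = 4 each; limma adjusted p = 0.312). For C20H41NO2, 309.3033 Da was at 3.73 ± 0.584 and 3.44 ± 1.26 (SD, n = 4 each; limma adjusted p = 0.559), while no streptomycin sample listed C20H41NO2. For C18H39NO2, 283.2876 Da was at 8.01 ± 1.32 and 6.88 ± 1.85 (SD, n = 4 each; limma adjusted p = 0.29), more intense than the C18H39NO2 row. These are also the formulas of fatty amides such as oleamide, C18H35NO, so they do not settle which compound was measured.

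The acquisitions of a sample were close for the members. Where both listed the mass, they differed by a median of 0.557% for C18H37NO2, 0.940% for C19H41NO2 and 2.20% for C17H37NO2, and by at most 12.6%, for C17H35NO2. The calls of C17H37NO2, C18H37NO2 and C21H45NO3 were made with either acquisition alone.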

How the data were processed

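The authors deposited 1 table of relative intensities, a linear signal per neutral mass and acquisition, with 2 acquisitions for each of 8 samples, per the file headers. Per the labels, spectra of 200 scans were recorded over m/z 150 to 1100 in positive and negative ion mode with an internal calibrant. Peak processing followed an earlier publication, per the labels, which give no reference level for the values and no rule for merging ion modes. The value of a sample was the mean of both acquisitions, with 0 for one that did not list the mass. Zeros were set to 0.0738, the lowest sample value, and values log2 transformed. All 2429 masses, each listed in 3 or more samples of a group, were fitted with limma 3.58.1 (lmFit and eBayes, R 4.3.3) and no block; the threshold on Benjamini-Hochberg adjusted p was 0.05. Formula masses came from pyteomics 5.0.1 and permutation tests from scipy 1.17.1, in Python 3.11.15. Intervals of pair differences use the pooled SD with 6 degrees of freedom. This fit was also tested on simulated data, modelled on masses listed in all 8 samples. That test does not cover calls that rest on filled-in zeros. Every member is named. Among the other sphingolipid and N-acylethanolamine formulas the rule named up to 3 called masses per family. Members and lists were chosen with earlier results of these data known. Alternatives were other fill-in values, scales, filters, tolerances, single acquisitions, a replicate block, the methods' t-test and leaving out each sample; joining of sodium-spaced rows was added after seeing the data. Samples with the same number did not deviate together in every pair, so they were not treated as paired. This does not show that they came from different mice, and the tests took all 8 samples as independent.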

Additional observations from a re-analysis of the deposited data

Results flagged for a closer look

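One sample stood apart from its group among 22 groups of sample values examined, where chance alone flags about 1 in 20. For C18H39NO2, the formula of sphinganine, untreated sample 4 listed the mass at 0 in both acquisitions while the other untreated samples were at 0.506 to 0.600. These levels are far below the median listed value of a mass in untreated samples, 2.28.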

How the results depend on the processing

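The count of members called higher, 6, became 2 with the lowest listed value of the same mass put in for 0 and 2 when only masses listed in both groups were fitted; the count called lower, 2, became 1 and 1 under these, and 4 on the calibrant scale, where 4 were higher. Both of the first alternatives take away the difference put in for masses of one group only; over all masses the calls were 341 of 2429 and 345 of 633 in place of 2172. The methods' t-test after Benjamini-Hochberg adjustment called 2150 masses and the same 8 members. With any 1 sample left out, 5 to 6 members were higher and 2 to 3 lower. Of the 3 masses matched by formulas of unsaturated N-acylethanolamines, 0 were higher and 3 lower in every such run. C19H39NO2 had a log2 change of 0.38 on the median-ratio scale, and of -0.0919 to 0.0511 with any 1 sample left out, above 0 without untreated sample 1 or 2 or streptomycin sample 3 or 4. C16H33NO2 changed by 0.0718 with the mean over listed acquisitions, under which C16H33NO2 over C19H39NO2 differed by 0.0852. Without 1 sample the pair differences were 0.71 to 1.24 for C16H33NO2 over C18H37NO2, -0.59 to -0.22 for C16H33NO2 over C19H39NO2 and -1.50 to -1.30 for C18H37NO2 over C19H39NO2. No p is given for these, since 3 against 4 samples cannot go below 0.0571. Pairs with C16H33NO2 could not be run on single acquisitions, because 2 acquisitions do not list it. With the replicate block, counts stayed at 6 and 2 and C18H37NO2 at -1.44 (limma adjusted p = 0.000256); the correlations of same-numbered samples were 0.043, 0.03, 0.107 and 0.124 over 539 masses, and for 2 of 4 numbers the untreated sample correlated best with the streptomycin sample of its own number. Tolerances of 1 and 2 ppm, and the nearest row to each formula, gave the same counts. The depth behind an intensity is unknown.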
